A study of Mus musculus with 30 samples.

Results

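Satellite cells, the muscle stem cells of mouse hind limb, were compared between 7 days and 60 h after injury, which asks what changes as the cells leave the proliferative peak. The comparison covers 4 RNA-seq libraries of 30 in the series, chosen by their labels: 2 of cells taken 60 h and 2 of cells taken 7 days after injury. Both groups were C57BL/6 mice whose hind limb muscle was injured by BaCl2 injection, and both were perfused with paraformaldehyde so that cells were fixed in place before they were isolated. The labels give no transgene and no age for either group. RNA was taken with a kit for fixed tissue, polyadenylated RNA was amplified with SMART-Seq v4, and libraries were made with Tn5. Uninjured cells and cells at 32 h, 14 days and 28 days, treated in the same way (the uninjured without injection), serve below as levels to set beside both times. Nothing in the labels says whether replicates came from separate animals, so p-values measure the spread between libraries, which may be technical. The 60 h libraries stand in one deposited table and the 7 day libraries in another, and table and time cannot be told apart.

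Satellite cells rest outside the cell cycle under the basement membrane of the muscle fibre and are marked by the transcription factor Pax7. After injury they express Myod1, enter the cycle and multiply as myoblasts, which then either fuse into new fibres under Myog or return to rest as Pax7-positive stem cells. Notch signals, CDK inhibitors and a matrix that the cells deposit themselves are known to go with the return to rest, and growth of the dividing cell calls on nucleotide, lipid, ribosome and protein synthesis.

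The 4 libraries were of unequal depth: 26568338 and 28501981 counts at 60 h and 9593338 and 9182407 at 7 days. Each library was most like the other of its own group. Models overlapping ribosomal RNA held 26.5 and 29.1% of counts at 60 h and 2.7 and 2.55% at 7 days, and mitochondrial genes 3.37 and 3.65% and 8.37 and 5.86%. The satellite cell label was borne out in all 4 libraries by levels in CPM (counts on a per-million scale, with TMM library sizes). Pax7 had 157 and 149 CPM at 60 h against 656 and 585 at 7 days, and Cdh15 (M-cadherin) 198 and 245 CPM at 60 h against 165 and 180.1 at 7 days.

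Pseudogene copies of Gapdh stood apart in the 7 and 28 day libraries. Gapdh, a glycolytic enzyme with 85 pseudogene copies of at least 95% identity over 200 bases or more, had 106 and 166 CPM at 60 h and 129.5 and 124 at 7 days. Its copies together had 2551 and 2805 CPM at 60 h, 140.3 and 172 at 7 days and 1457 and 1651 at 14 days. At 28 days they had 178 and 136. The copies were thus low in the 7 and 28 day libraries and high in all others, those of 14 days included, although 14 days stands in the same deposited table as 7 days. Whether reads of near-identical copies were assigned differently in these libraries was not tested, and genes with such copies are named as uncertain. Of 2697 pseudogene models tested, 137 were called higher and 356 lower at 7 days, beside 12.5% and 12.2% of all genes tested. The share lower was thus near that of all genes, and the share higher was below it. Among protein-coding genes with no such copy, 1851 were higher and 1919 lower of 13278 tested.

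**Figure D1:**
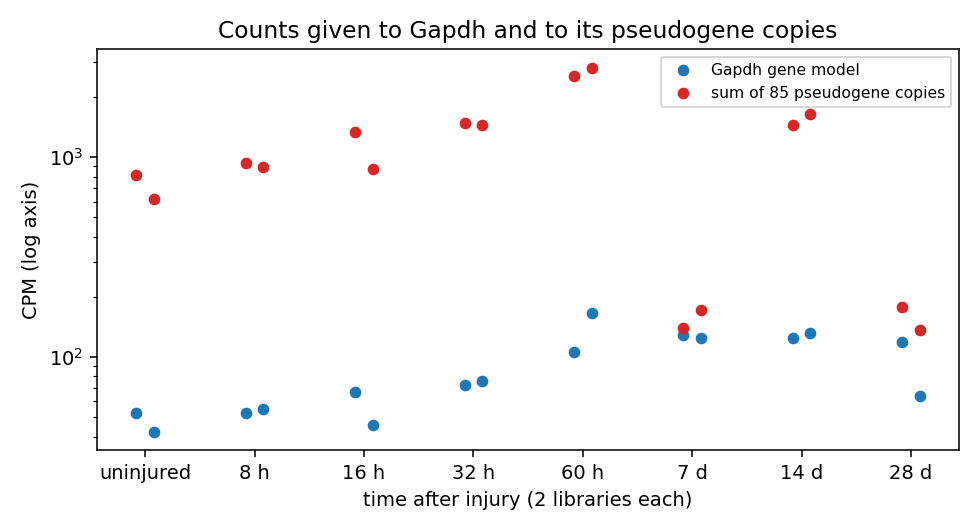
CPM on a log axis given to the Gapdh gene model (blue) and summed over its pseudogene copies (red), one point per library, 2 libraries per time. The copies sit between 136 and 178 CPM at 7 and 28 days and at 615 CPM or more in the other libraries shown, while Gapdh itself lies between 106 and 166 CPM at 60 h and 7 days.

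Across the transcriptome, 5508 of 22221 genes tested (24.8%) differed between 7 days and 60 h at an adjusted p under 0.05 in edgeR's quasi-likelihood test. Of these, 2786 were higher at 7 days (12.5% of genes tested) and 2722 lower (12.2%). The median log2 fold change over all genes tested was 0. The groups did not overlap for 5502 of the 5508 genes called, so with 2 libraries a group a call nearly always goes with separate groups, and this is given as no support of its own. Leaving out 1 library cut the count to 2935 without 60 h replicate 1, 2731 without 60 h replicate 2, 2819 without 7 day replicate 1 and 3559 without 7 day replicate 2, since 1 group then holds a single library. Calls of named genes that were lost when a library was left out are given as such, and the other named calls held in all 4 of these fits.

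**Figure D2:**
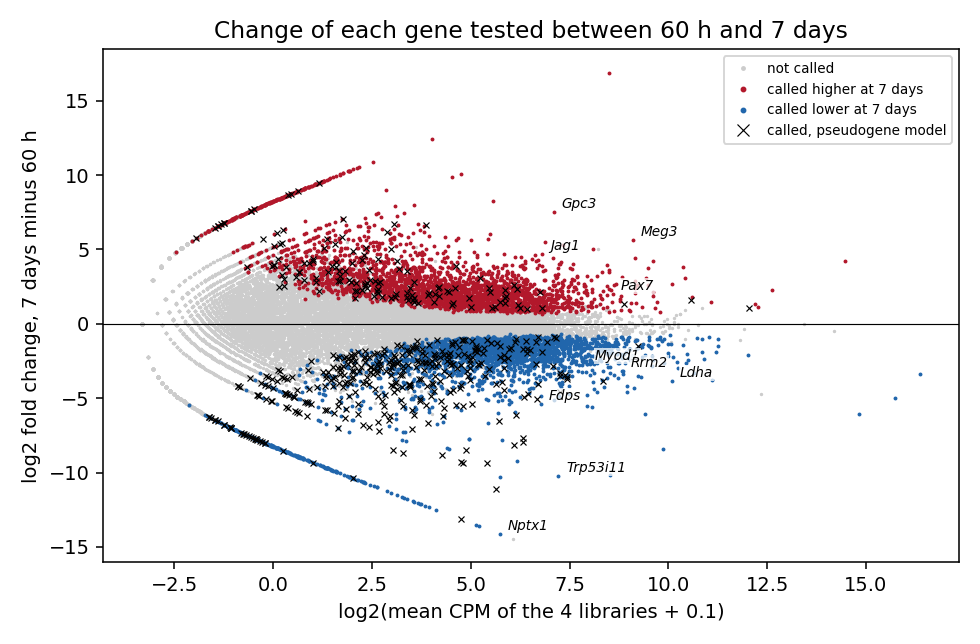
Log2 fold change (7 days minus 60 h) of each gene tested against its mean level on a log2 scale; red and blue points were called higher and lower at 7 days, crosses are called pseudogene models. The curved edges are genes with no count in one group, whose fitted values are no measure of size; Meg3 and Gpc3 lie far up, Nptx1 and Trp53i11 far down.

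Genes of DNA replication were lower at 7 days. Of 44 genes of replication and S phase tested, 19 fell and none rose, beside 12.2% of all genes called lower, and the median log2 fold change was -1.69. The list summed to 5722 and 6195 CPM at 60 h, against 1598 and 1825 at 7 days. It stood at 658 and 797 CPM at 14 days and 509 and 441 in uninjured cells, so 7 days lay between the peak and rest. Rrm2, the small subunit of ribonucleotide reductase that makes DNA precursors, had 777 and 894 CPM at 60 h against 81.2 and 104 at 7 days (log2 fold change -3.17, SE 0.47, adjusted p = 0.000418). Mcm5, part of the helicase that opens DNA, fell from 269 and 314 CPM to 25.4 and 46.7 CPM (log2 fold change -3.02, SE 0.46, adjusted p = 0.000469). Its partners Mcm3 (194 and 215 CPM at 60 h against 33.8 and 51.4 at 7 days) and Mcm7 (367 and 395 CPM at 60 h against 68.3 and 79.0 at 7 days) fell with it, as did the DNA polymerase subunit Pold1 (139 and 151 CPM at 60 h against 30.4 and 24.4 at 7 days). E2f8, a repressor that S phase itself induces, went from 135 and 110.0 CPM to 3.41 and 2.35 CPM (log2 fold change -5.41, SE 1.04, adjusted p = 0.0032). E2f1, the activator of S phase genes, had 15.5 and 14.3 CPM at 60 h against 11.7 and 12.5 at 7 days and did not pass the test (log2 fold change -0.30, SE 0.95, adjusted p = 0.861). Ccne1, the cyclin that starts S phase, had 75.9 and 68.9 CPM at 60 h against 35.6 and 44.8 at 7 days (adjusted p = 0.499). Rrm2 and Mcm7 each share sequence with a near-identical copy. The count of members that fell was 12 without 60 h replicate 1, 13 without 60 h replicate 2, 10 without 7 day replicate 1 and 10 without 7 day replicate 2, and 36 in a fit of the 4 libraries alone.

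Genes of G2 and mitosis were called lower in 23 of 48 cases and higher in none, beside 12.2% of all genes called lower. Their median log2 fold change was -1.97. Their sum was 5443 and 5516 CPM at 60 h, against 1319.5 and 1823 at 7 days, 1812 and 1837 at 32 h and 282 and 315 at 28 days. Both 7 day libraries were below each 60 h library. Ccna2, the cyclin of S and G2 phase, had 289 and 267 CPM at 60 h against 28.7 and 49.3 at 7 days (log2 fold change -2.83, SE 0.49, adjusted p = 0.00112). Ccnb1, the cyclin that drives entry into mitosis, fell from 265 and 269 CPM to 11.2 and 30.4 CPM (log2 fold change -3.68, SE 0.83, adjusted p = 0.00655). Kif20a, a motor of the dividing cell's midzone, fell from 162 and 177 CPM to 9.05 and 6.96 CPM (log2 fold change -4.40, SE 0.80, adjusted p = 0.0015). Ncapd2, a subunit of the condensin that compacts chromosomes, fell from 166 and 173 CPM to 40.9 and 40.6 CPM (log2 fold change -2.06, SE 0.35, adjusted p = 0.000952). The mitotic kinase Plk1 had 126 and 126 CPM at 60 h against 5.48 and 4.86 at 7 days (log2 fold change -4.61, SE 1.12, adjusted p = 0.0102) and the kinase Aurka 106 and 98.9 CPM at 60 h against 5.16 and 8.99 at 7 days (log2 fold change -3.85, SE 0.92, adjusted p = 0.00926).

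Several familiar markers of dividing cells did not pass the test, which does not show that they were unchanged. The spread used in the test is shared by all 8 groups fitted, some with replicates further apart than at 60 h or 7 days. Mki67, the antigen used to score cycling cells, had 179.8 and 206 CPM at 60 h against 61.4 and 78.4 at 7 days (log2 fold change -1.46, SE 0.64, adjusted p = 0.113). Cdk1, the kinase that Ccnb1 activates, had 152 and 146 CPM at 60 h against 32.5 and 65.2 at 7 days (log2 fold change -1.61, SE 0.88, adjusted p = 0.197). Top2a, which untangles DNA before division, had 203 and 213 CPM at 60 h against 149 and 217 at 7 days and its groups overlapped (log2 fold change -0.18, SE 0.61, adjusted p = 0.868). At 14 days Top2a stood at 12.5 and 30.6 CPM and in uninjured cells at 3.35 and 1.36. Within the list, Top2a was thus near its 60 h level at 7 days while Plk1 and Kif20a were not. Calls of the mitotic list numbered 16 without 60 h replicate 1, 13 without 60 h replicate 2, 3 without 7 day replicate 1 and 14 without 7 day replicate 2. Those of Ccnb1 and Cdc20 were lost without 7 day replicate 1, and those of Plk1 and Aurka without either 7 day library. Mki67 and Ccnb1 share sequence with near-identical copies. A fit of the 4 libraries alone called 39 lower and 1, Pttg1 (securin, which holds sister chromatids together), higher, at 21.3 and 22.8 CPM at 60 h against 38.0 and 42.2 at 7 days.

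**Figure D3:**
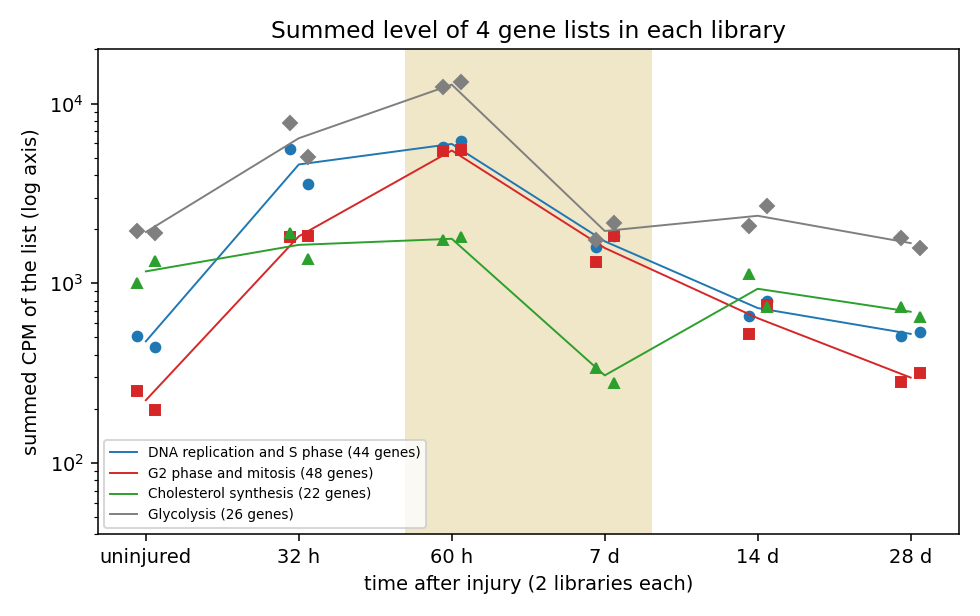
Summed CPM of 4 gene lists on a log axis, one point per library and a line through the means of the 2 libraries at each time; the shaded band holds 60 h and 7 days. S phase, mitosis and glycolysis lists peak at 60 h and are lower in both 7 day libraries, and cholesterol synthesis is at its lowest at 7 days.

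Promoter letters are shown for these lists because 23 of 48 mitotic and 19 of 44 S phase members were called, all of them lower. Windows of 250 bases before RefSeq gene starts (GRCm38.p6) matched 39 of the 48 mitotic and 37 of the 44 S phase genes by symbol, some with more than one start. On both strands, the letters TTTGAA (a form of the cell cycle homology region) stood in 16 of 41 windows (39.0%) of the mitotic list, 6 of 45 windows (13.3%) of the S phase list and 5252 of 32851 windows (16.0%) of all promoters. CCAAT, the NF-Y box, stood in 32 of 41 windows (78.0%), 27 of 45 windows (60%) and 11120 of 32851 windows (33.8%) in the same order. Letters of an E2F site (TTTGGCGC, TTTCGCGC or TTTCCCGC) stood in 2 of 41 windows (4.88%), 10 of 45 windows (22.2%) and 504 of 32851 windows (1.53%). The first 3 sequences are the called mitotic genes of smallest adjusted p that hold both TTTGAA and CCAAT, with those letters (or their reverse complement, which overlap at one place in Ube2c) in capitals; the last 2 are the S phase genes of smallest adjusted p with E2F letters, in capitals. They lie at chr6:125191587-125191836, minus strand (Ncapd2), chr4:118437344-118437593, minus strand (Cdc20), chr2:164769679-164769928, plus strand (Ube2c), chr5:138171884-138172133, minus strand (Mcm7) and chr8:75109259-75109508, plus strand (Mcm5), and are written 5′ to 3′ toward the gene. A match is only these letters, not evidence of binding.
Ncapd2: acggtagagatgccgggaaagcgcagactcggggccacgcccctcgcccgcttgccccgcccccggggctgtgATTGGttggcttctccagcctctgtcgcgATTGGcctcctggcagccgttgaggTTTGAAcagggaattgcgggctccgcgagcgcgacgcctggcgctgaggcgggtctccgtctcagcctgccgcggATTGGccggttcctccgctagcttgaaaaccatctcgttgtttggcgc
Cdc20: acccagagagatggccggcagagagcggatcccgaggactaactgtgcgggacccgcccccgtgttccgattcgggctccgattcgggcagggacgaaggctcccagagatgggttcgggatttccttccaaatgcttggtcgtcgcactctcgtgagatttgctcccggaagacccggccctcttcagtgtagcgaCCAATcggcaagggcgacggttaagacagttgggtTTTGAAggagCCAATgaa
Ube2c: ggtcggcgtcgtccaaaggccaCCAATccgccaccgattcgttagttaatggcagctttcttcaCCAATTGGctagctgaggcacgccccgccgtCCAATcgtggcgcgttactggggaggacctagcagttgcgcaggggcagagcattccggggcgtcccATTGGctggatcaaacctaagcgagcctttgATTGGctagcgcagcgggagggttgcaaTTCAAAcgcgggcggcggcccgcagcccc
Mcm7: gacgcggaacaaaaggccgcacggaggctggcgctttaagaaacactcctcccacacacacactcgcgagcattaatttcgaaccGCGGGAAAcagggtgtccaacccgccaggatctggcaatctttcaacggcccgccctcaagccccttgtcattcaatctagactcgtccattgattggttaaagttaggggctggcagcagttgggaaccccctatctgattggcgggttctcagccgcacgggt
Mcm5: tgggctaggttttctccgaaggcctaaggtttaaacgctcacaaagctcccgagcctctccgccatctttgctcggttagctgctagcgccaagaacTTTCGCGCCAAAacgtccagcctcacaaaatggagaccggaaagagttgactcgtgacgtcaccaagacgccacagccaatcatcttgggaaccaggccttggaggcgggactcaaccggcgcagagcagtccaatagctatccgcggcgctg
Cdc20, which starts the exit from mitosis, had 294 and 311 CPM at 60 h against 13.5 and 37.6 at 7 days (adjusted p = 0.00566), and Ube2c, the ubiquitin-conjugating enzyme that works with it, 182 and 174 CPM at 60 h against 23.2 and 41.6 at 7 days (adjusted p = 0.0109), a call lost without 7 day replicate 1. The Mcm5 window holds the E2F letters as an overlapping match on each strand.

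Regulators of the G1 phase went both ways, 7 higher and 4 lower of 25, beside 12.5% and 12.2% of all genes. The share lower was near that of all genes. Cdkn1b (p27), an inhibitor of G1 kinases linked to rest, rose from 18.5 and 21.3 CPM to 152 and 129.7 CPM (log2 fold change 2.83, SE 0.38, adjusted p = 0.000209). Cdkn1c (p57), another inhibitor of the same family, rose from 56.0 and 58.1 CPM to 566 and 492 CPM (log2 fold change 3.21, SE 0.80, adjusted p = 0.0107). The p53 target Cdkn1a (p21) went the other way in level, 385 and 424 CPM at 60 h against 85.0 and 148 at 7 days, without passing the test (log2 fold change -1.80, SE 0.71, adjusted p = 0.0819). Mxd4, which opposes Myc on DNA, rose from 5.7 and 10.8 CPM to 98.7 and 65.4 CPM (log2 fold change 3.31, SE 0.46, adjusted p = 0.000254). Myc itself, a driver of growth, fell from 320.4 and 307 CPM to 74.1 and 72.8 CPM (log2 fold change -2.09, SE 0.47, adjusted p = 0.00567). Ccnd1, the cyclin that carries growth signals into G1, fell from 274 and 273 CPM to 71.7 and 93.7 CPM (log2 fold change -1.73, SE 0.34, adjusted p = 0.00256), as did its kinase Cdk4, from 559 and 568 CPM to 186 and 229.9 CPM (log2 fold change -1.44, SE 0.27, adjusted p = 0.00183). Ccnd2 went the opposite way to Ccnd1, from 3.34 and 4.29 CPM to 19.8 and 21.05 CPM (adjusted p = 0.0206). In uninjured cells Cdkn1b had 58.6 and 67.8 CPM and Cdkn1c 87.4 and 25.9, and at 28 days 120.4 and 157 and 15.4 and 15.2, so Cdkn1c was higher at 7 days than in any library of those groups. The call of Cdkn1c was lost without either 60 h library, that of Myc without 7 day replicate 1 and that of Ccnd2 without any 1 of the 4. Higher calls in the list numbered 2 without 60 h replicate 1, 3 without 60 h replicate 2, 4 without 7 day replicate 1 and 4 without 7 day replicate 2. Lower calls numbered 1 in the fit of all 24 libraries of both tables.

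Genes of satellite cell identity and rest were more often higher, 11 of 23 against 3 lower, beside 12.5% and 12.2% of all genes. The list summed to 4440 and 4953 CPM at 60 h and 5916 and 5115 at 7 days. In uninjured cells it summed to 10943.5 and 10513 CPM, above both times. Pax7 was higher in both 7 day libraries than in either 60 h library, at the levels given above, and passed the test with all libraries (log2 fold change 2.02, SE 0.64, adjusted p = 0.0349) but not without any 1 of the 4. It stayed under the 2119 and 1824 CPM of uninjured cells. Myf5, the myogenic factor that resting cells hold ready, rose from 211 and 182 CPM to 1570.2 and 889 CPM (log2 fold change 2.65, SE 0.58, adjusted p = 0.00477), a call lost without 60 h replicate 2. Calcr, the calcitonin receptor of resting satellite cells, rose from 13.9 and 16.5 CPM to 96.9 and 77.2 CPM (log2 fold change 2.52, SE 0.48, adjusted p = 0.00206). Spry1, a brake on growth factor signals needed for return to rest, rose from 17.1 and 15.8 CPM to 81.8 and 83.1 CPM (log2 fold change 2.32, SE 0.47, adjusted p = 0.00297). Both remained below uninjured cells, which had 178 and 211 and 162 and 189 CPM. The transcription factors Tcf4 (95.8 and 106 CPM at 60 h against 729 and 473 at 7 days) and Foxo3 (31.2 and 30.8 CPM at 60 h against 115 and 139 at 7 days) and the chemokine receptor Cxcr4 (2.44 and 3.47 CPM at 60 h against 25.3 and 18.8 at 7 days) also rose. Surface proteins used to sort these cells behaved differently. Itga7, the laminin-binding integrin, fell from 709.6 and 857 CPM to 260.3 and 229 CPM (log2 fold change -1.68, SE 0.28, adjusted p = 0.000852), Cd34 fell from 129 and 149 CPM to 71.8 and 43.5 CPM (adjusted p = 0.0196), and Vcam1 had 227 and 257 CPM at 60 h against 270.3 and 256 at 7 days (log2 fold change 0.12, SE 0.50, adjusted p = 0.902). The call of Cd34 was lost without 60 h replicate 2 or 7 day replicate 2. Higher calls numbered 6 without 60 h replicate 1, 5 without 60 h replicate 2, 7 without 7 day replicate 1 and 9 without 7 day replicate 2. Lower calls were 1 without 60 h replicate 2 and with all 24 libraries.

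Among genes of commitment and fusion 6 of 28 rose and 4 fell, beside 12.5% and 12.2% of all genes. The share lower was near that of all genes, and the genes below are values of single members. Myod1, the factor that marks activated myoblasts, fell from 428 and 420.1 CPM to 66.0 and 65.4 CPM (log2 fold change -2.69, SE 0.74, adjusted p = 0.0181), to about the 50.3 and 59.6 CPM of uninjured cells. Its 7 day libraries were alike, and the call was nonetheless lost without either of them. Myog, the factor of terminal differentiation, was higher in both 7 day libraries, 137 and 149 CPM at 60 h against 301 and 364 at 7 days, but did not pass the test (log2 fold change 1.22, SE 0.90, adjusted p = 0.337). At 14 days its libraries were far apart, 89.1 and 808 CPM. The fusion proteins Mymk (26.0 and 35.2 CPM at 60 h against 25.1 and 25.7 at 7 days) and Mymx (4.63 and 7.72 CPM at 60 h against 22.9 and 35.2 at 7 days) did not pass either, with adjusted p = 0.912 and 0.15. Msc, a repressor that binds the same DNA sites as Myod1, rose from 17.997 and 15.004 CPM to 137 and 140.3 CPM (log2 fold change 3.07, SE 0.42, adjusted p = 0.000256). The growth factor receptor Fgfr4 rose from 91.7 and 108 CPM to 332 and 272 CPM (adjusted p = 0.0142; lost without either 60 h library or 7 day replicate 1), and Kif5b, a kinesin heavy chain, from 134 and 122 CPM to 528 and 449 CPM (log2 fold change 1.93, SE 0.24, adjusted p = 0.000139). Chrna1, the muscle acetylcholine receptor subunit, fell from 698 and 797 CPM to 110.1 and 131 CPM (log2 fold change -2.63, SE 0.39, adjusted p = 0.000378), and has near-identical copies. Lower calls in the list numbered 1 with all 24 libraries and 2 without 60 h replicate 1, 2 without 60 h replicate 2, 2 without 7 day replicate 1 and 1 without 7 day replicate 2. Higher calls numbered 3 without 60 h replicate 1, 2 without 60 h replicate 2, 3 without 7 day replicate 1 and 6 without 7 day replicate 2.

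Of 36 genes of the contractile fibre, 6 rose and 3 fell, near the background, and higher calls numbered 1 without 60 h replicate 1, 2 without 60 h replicate 2, 1 without 7 day replicate 1 and 4 without 7 day replicate 2. Cryab, a small heat shock protein of the sarcomere, rose from 62.9 and 63.1 CPM to 223 and 352 CPM (log2 fold change 2.19, SE 0.33, adjusted p = 0.000487). The muscle intermediate filament Des (531 and 616 CPM at 60 h against 181 and 179.9 at 7 days; adjusted p = 0.00562) and the actin-binding Tpm1 (475 and 452 CPM at 60 h against 119.8 and 126 at 7 days; adjusted p = 0.000928) fell. Acta1, skeletal actin, had 35.5 and 52.9 CPM at 60 h against 24.2 and 27.0 at 7 days (adjusted p = 0.587), and Myh3, the embryonic myosin of new fibres, 11.1 and 10.2 CPM at 60 h against 1.11 and 2.51 at 7 days (adjusted p = 0.254).

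**Figure D4:**
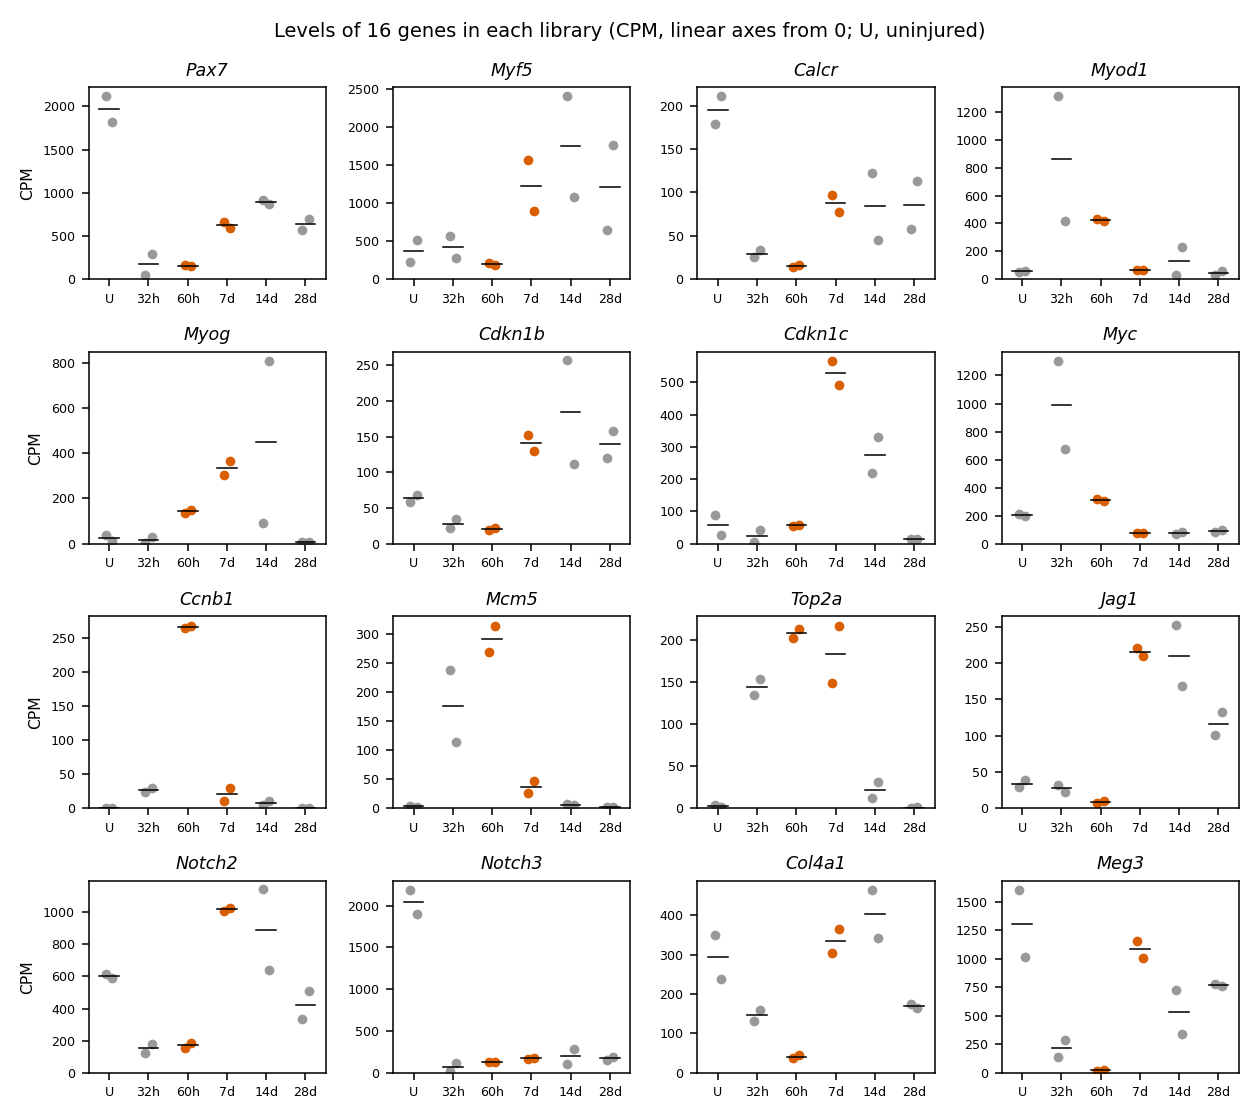
CPM of 16 genes in each library on linear axes from 0, 2 points per time with a bar at their mean; orange marks 60 h and 7 days, grey the other times (U, uninjured). Pax7, Calcr, Cdkn1b, Cdkn1c, Jag1, Notch2, Col4a1 and Meg3 are higher in both 7 day libraries than at 60 h, Myod1, Myc, Ccnb1 and Mcm5 lower, and Top2a overlaps.

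Notch genes were more often higher than lower, 9 against 2 of 27 tested (28 listed), beside 12.5% and 12.2% of all genes. The median log2 fold change of the list was 0.38. Jag1, a Notch ligand on the sending cell, rose from 7.28 and 9.43 CPM to 220.5 and 209.7 CPM (log2 fold change 4.68, SE 0.35, adjusted p = 6.28e-06). It stood above the 28.6 and 38.2 CPM of uninjured cells and near the 252 and 169 CPM of 14 days. Among the receptors, Notch2 rose from 154 and 186 CPM to 1008 and 1025 CPM (log2 fold change 2.58, SE 0.35, adjusted p = 0.000221), while Notch1 had 234 and 237 CPM at 60 h against 128 and 144 at 7 days (adjusted p = 0.104) and Notch3 125 and 129 CPM at 60 h against 168 and 183 at 7 days (adjusted p = 0.602). Notch3 had 2186 and 1906 CPM in uninjured cells, so neither 60 h nor 7 days was near the resting level. Of the target repressors, Hey1 rose from 15.5 and 17.5 CPM to 77.7 and 39.9 CPM (adjusted p = 0.00761) and Heyl from 111 and 91.1 CPM to 213 and 221 CPM (adjusted p = 0.0405), whereas Hes1 had 44.5 and 71.5 CPM at 60 h against 127 and 131 at 7 days (log2 fold change 1.15, SE 0.50, adjusted p = 0.109). Hes6, which opposes Hes1, fell from 177 and 170.0 CPM to 83.0 and 81.9 CPM (adjusted p = 0.0394). The collagens Col5a1, Col5a3 and Col6a1, held in this list because Notch is known to drive collagen V and collagen VI genes in resting cells, made up 3 of the higher calls. The calls of Heyl and Hes6 were lost without any 1 of the 4 libraries and that of Hey1 without any but 7 day replicate 2. Higher calls numbered 6 without 60 h replicate 1, 6 without 60 h replicate 2, 6 without 7 day replicate 1 and 7 without 7 day replicate 2, and lower calls 1 with all 24 libraries.

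The matrix list had 18 of 32 members called higher, beside 12.5% of all genes, with 2 lower and a median log2 fold change of 1.53. Col4a1, the chain of the basement membrane's collagen network, rose from 36.9 and 44.8 CPM to 303 and 365 CPM (log2 fold change 3.03, SE 0.29, adjusted p = 2.66e-05). Its partner Col4a2 rose from 24.5 and 30.5 CPM to 155 and 163 CPM (log2 fold change 2.53, SE 0.34, adjusted p = 0.000209). Col5a1, of collagen V, rose from 24.8 and 31.6 CPM to 156 and 143 CPM (log2 fold change 2.41, SE 0.35, adjusted p = 0.000345). Col6a1, of the beaded collagen VI, rose from 20.997 and 32.9 CPM to 215 and 199 CPM (log2 fold change 2.94, SE 0.43, adjusted p = 0.000381). Sparc, a collagen-binding protein, rose from 288 and 303 CPM to 1856 and 1894 CPM (log2 fold change 2.67, SE 0.33, adjusted p = 0.000139). Lama2, the laminin chain of the muscle basement membrane, rose from 86.8 and 76.8 CPM to 379.6 and 420.0 CPM (log2 fold change 2.29, SE 0.37, adjusted p = 0.0007), but the laminin chain Lama5 fell from 148 and 139 CPM to 55.7 and 51.1 CPM (log2 fold change -1.43, SE 0.29, adjusted p = 0.00336). Hspg2 (perlecan), which links the network, also fell from 323 and 383 CPM to 90.9 and 95.3 CPM (log2 fold change -1.92, SE 0.36, adjusted p = 0.00185). In uninjured cells Col4a1 had 351 and 238 CPM and Lama2 326 and 318, close to 7 days, and Hspg2 837 and 683, above both times. The collagens of fibrils Col3a1 (271 and 305 CPM at 60 h against 1437 and 1138 at 7 days) and Col1a2 (175 and 181 CPM at 60 h against 1043 and 893 at 7 days) rose. Col1a2 differed from Col4a1 in its uninjured level of 27.1 and 8.07 CPM, and its call was lost without either 60 h library. Higher calls in the list numbered 10 without 60 h replicate 1, 11 without 60 h replicate 2, 15 without 7 day replicate 1 and 14 without 7 day replicate 2.

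Col3a1 is also a marker of fibro-adipogenic cells, so other markers of those cells are given here. Their 15 markers summed to 533 and 538 CPM at 60 h and 1962 and 1721 at 7 days. Of them, 4 were called higher (Col3a1, Col1a1, Postn and Pi16) and 1 lower, beside 12.5% and 12.2% of all genes. The calls of Postn and Pdgfra were lost without any 1 of the 4 libraries, that of Col1a1 without any but 7 day replicate 1, and that of Pi16 without 60 h replicate 2. The lower one was the defining receptor Pdgfra, at 0.9 and 0.557 CPM at 60 h against 0 and 0 at 7 days, and Dcn had 16.6 and 9.82 CPM at 60 h against 6.91 and 8.26 at 7 days (adjusted p = 0.279). Pdgfra was thus not detected at 7 days, where a count of 0 in both libraries allows up to 0.120 CPM, counting error only. In bulk samples fewer cells of a type and less RNA per cell cannot be told apart.

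Growth factors and their receptors had 11 members higher and 3 lower of 31 tested, beside 12.5% and 12.2% of all genes. Among the ligands, Bmp6 rose from 3.86 and 2.14 CPM to 67.5 and 67.9 CPM (log2 fold change 4.49, SE 0.40, adjusted p = 1.8e-05). Pdgfa rose from 21.5 and 18.6 CPM to 165 and 137 CPM (log2 fold change 2.92, SE 0.32, adjusted p = 6.95e-05) and Bmp4 from 20.8 and 19.1 CPM to 98.2 and 86.0 CPM (log2 fold change 2.20, SE 0.36, adjusted p = 0.000697). Igf1, a growth factor made in growing muscle, rose from 5.57 and 5.19 CPM to 66.4 and 73.4 CPM (adjusted p = 0.00797), and its receptor Igf1r from 29.9 and 24.01 CPM to 201 and 109.7 CPM (log2 fold change 2.53, SE 0.38, adjusted p = 0.000431). The call of Igf1 was lost without either 60 h library. Met, the receptor of the activating factor HGF, went the other way, from 210.3 and 245 CPM to 72.5 and 45.4 CPM (log2 fold change -1.95, SE 0.29, adjusted p = 0.000383). Igfbp5, which binds IGFs, rose from 118 and 112 CPM to 657 and 406 CPM (adjusted p = 0.02; lost without either 60 h library or 7 day replicate 1). Higher calls were 6 with all 24 libraries, and numbered 5 without 60 h replicate 1, 5 without 60 h replicate 2, 7 without 7 day replicate 1 and 10 without 7 day replicate 2. Lower calls were 1 with the replicate block and 1 with all 24 libraries.

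Imprinted genes, of which only the copy from one parent is active and many of which restrain or promote growth, had 13 of 22 members higher and 1 lower. This stood beside 12.5% and 12.2% of all genes, and the median log2 fold change of the list was 1.86. Meg3, a maternally expressed long RNA of the Dlk1-Dio3 region, rose from 19.97 and 24.1 CPM to 1156 and 1008 CPM (log2 fold change 5.62, SE 0.47, adjusted p = 1.26e-05). Its neighbours Rian and Mirg, also maternally expressed RNAs, rose with it. Rian went from 8.31 and 11.8 CPM to 197 and 201 CPM (log2 fold change 4.30, SE 0.44, adjusted p = 4.17e-05) and Mirg from 0.257 and 0.472 CPM to 19.2 and 22.4 CPM (log2 fold change 5.81, SE 0.65, adjusted p = 6.95e-05). All 3 were lower at 60 h than in uninjured cells, where they had 1601 and 1014, 378 and 235 and 128 and 59.8 CPM. Dlk1, the paternal gene of that region, had 0.6 and 1.16 CPM at 60 h against 1.59 and 2.27 at 7 days (adjusted p = 0.405). At the other well known locus both Igf2, the fetal growth factor, and the maternal H19 RNA rose, from 72.8 and 64.3 CPM to 329 and 464 CPM (log2 fold change 2.53, SE 0.46, adjusted p = 0.00146) and from 63.0 and 43.0 CPM to 273 and 330.4 CPM (log2 fold change 2.51, SE 0.51, adjusted p = 0.003). The receptor Igf2r, which clears Igf2, rose from 32.9 and 49.4 CPM to 346 and 393 CPM (log2 fold change 3.17, SE 0.34, adjusted p = 5.99e-05). Peg3 had 1245 and 1333 CPM at 60 h against 1149.6 and 1128 at 7 days (log2 fold change -0.18, SE 0.29, adjusted p = 0.685) and Mest 629.8 and 717 CPM at 60 h against 648 and 661 at 7 days, and neither passed. The call of H19 was lost without 60 h replicate 2, and higher calls in the list numbered 9 without 60 h replicate 1, 7 without 60 h replicate 2, 12 without 7 day replicate 1 and 11 without 7 day replicate 2. The 1 lower call, Nnat (8.57 and 14.0 CPM at 60 h against 3.02 and 3.4 at 7 days), held only without 60 h replicate 1.

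**Figure D5:**
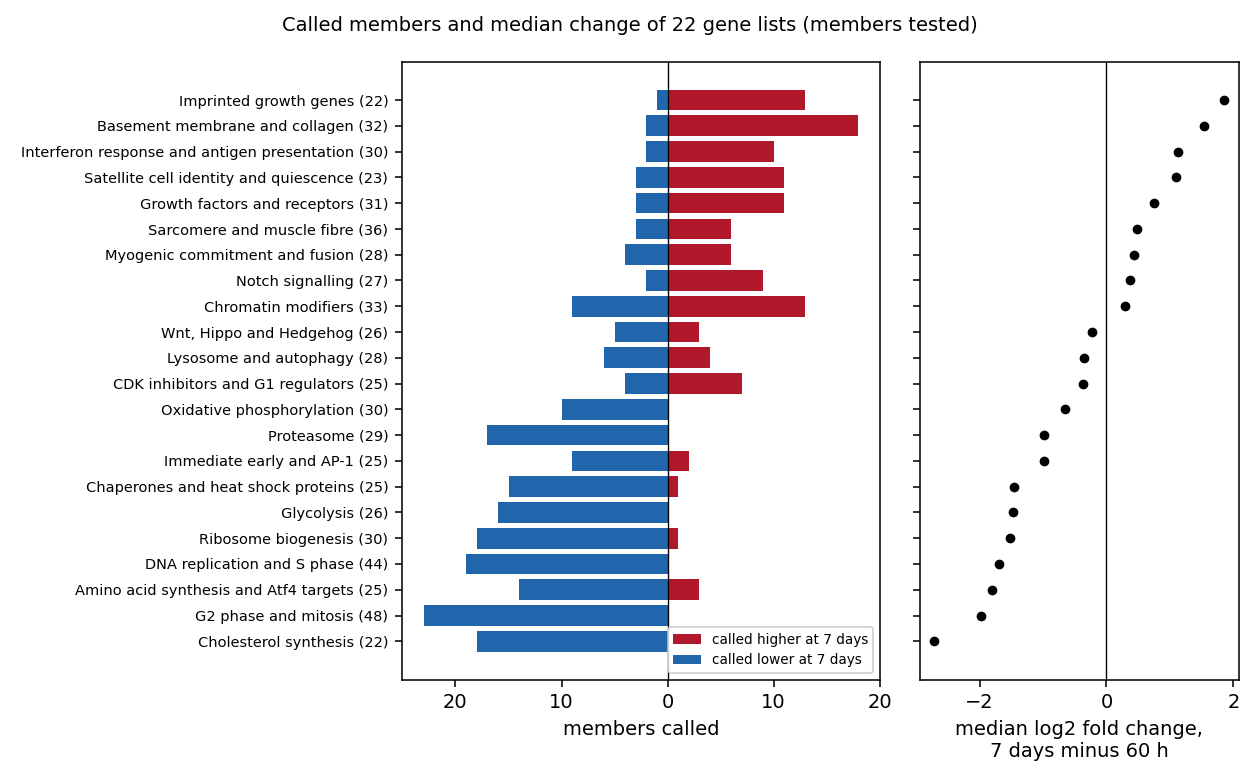
For 22 gene lists (members tested in brackets), the number of members called higher (red, right) and lower (blue, left) at 7 days and, in the right panel, the median log2 fold change of 7 days minus 60 h. Imprinted, matrix and interferon lists lie at the top, and cholesterol synthesis, mitosis and amino acid synthesis at the bottom.

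Cholesterol synthesis was the pathway list of lowest median, -2.71. It had 18 of 22 genes lower and none higher, beside 12.2% of all genes called lower. Fdps, which makes farnesyl diphosphate, fell from 204 and 221 CPM to 4.29 and 5.75 CPM (log2 fold change -5.41, SE 0.54, adjusted p = 4.12e-05). Srebf2, the factor that switches the pathway on, fell from 312 and 338 CPM to 35.7 and 35.4 CPM (log2 fold change -3.19, SE 0.35, adjusted p = 6.2e-05). Insig1, which holds the pathway off, had 65.9 and 80.6 CPM at 60 h against 102 and 55.3 at 7 days (adjusted p = 0.911), and at 14 days 392 and 197. Summed, the list stood at 1736 and 1799 CPM at 60 h, 337 and 277 at 7 days and 1122 and 741 at 14 days. Uninjured cells had 998 and 1330.5 CPM. Lower calls numbered 15 without 60 h replicate 1, 15 without 60 h replicate 2, 10 without 7 day replicate 1 and 10 without 7 day replicate 2.

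Glycolysis genes were lower in 16 of 26 cases, none higher, beside 12.2% of all genes called lower. Their median log2 fold change was -1.47. Ldha, lactate dehydrogenase, had 1941 and 2123 CPM at 60 h against 116 and 167 at 7 days (log2 fold change -3.85, SE 0.44, adjusted p = 8.52e-05), and Eno3, the muscle enolase, 503 and 518 CPM at 60 h against 39.4 and 29.5 at 7 days (log2 fold change -3.89, SE 0.57, adjusted p = 0.000391). Aldoa (aldolase) fell from 2028 and 2037 CPM to 291 and 394 CPM (log2 fold change -2.57, SE 0.37, adjusted p = 0.000336). The glucose transporter Slc2a1 fell from 48.6 and 51.1 CPM to 8.25 and 3.72 CPM (adjusted p = 0.0114; lost without 7 day replicate 2). Ldha, Tpi1, Eno1, Pkm, Pgam1, Gpi1 and Pgk1 have near-identical copies and are uncertain for that reason, and the call of Pgk1 was lost without 7 day replicate 1. Ldha stood at 129.6 and 312 CPM at 14 days, where the Gapdh copies were high, and at 144 and 109.6 in uninjured cells. Of the 17 tested members with no copy, 9 were lower, with a median of -1.42. Lower calls over the whole list numbered 12 without 60 h replicate 1, 11 without 60 h replicate 2, 9 without 7 day replicate 1 and 11 without 7 day replicate 2.

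Nuclear genes of oxidative phosphorylation fell in 10 of 30 cases, with none higher, beside 12.2% of all genes called lower. Atp5b and Atp5a1, both of ATP synthase's catalytic head, fell from 2187 and 2407 CPM to 517 and 616 CPM (log2 fold change -2.02, SE 0.29, adjusted p = 0.000361) and from 1029.9 and 1216 CPM to 345 and 416 CPM (log2 fold change -1.56, SE 0.27, adjusted p = 0.00111). Cyc1, cytochrome c1, fell from 454 and 467 CPM to 127 and 179 CPM (adjusted p = 0.00154). Lower calls numbered 6 without 60 h replicate 1, 6 without 60 h replicate 2, 4 without 7 day replicate 1 and 10 without 7 day replicate 2, and 5 with all 24 libraries.

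Genes of serine, glycine and one-carbon metabolism and other Atf4 targets fell in 14 of 25 cases, and 3 rose. The shares of all genes were 12.2% lower and 12.5% higher. Shmt2, the mitochondrial enzyme that splits serine, fell from 294 and 298 CPM to 16.8 and 23.1 CPM (log2 fold change -3.89, SE 0.40, adjusted p = 4.68e-05). Psat1, of serine synthesis, fell from 413 and 467 CPM to 44.1 and 49.2 CPM (log2 fold change -3.24, SE 0.45, adjusted p = 0.000276). Asns, asparagine synthetase, fell from 101 and 102 CPM to 1.51 and 1.62 CPM (log2 fold change -6.01, SE 1.09, adjusted p = 0.00216). The arginine and lysine carrier Slc7a1 fell from 123 and 123 CPM to 10.9 and 10.4 CPM (log2 fold change -3.53, SE 0.37, adjusted p = 5.11e-05). Atf4, the factor that induces them, fell from 156 and 221 CPM to 54.1 and 54.2 CPM (adjusted p = 0.00526; lost without 7 day replicate 1). Those that rose were Vldlr, from 3.04 and 2.61 CPM to 32.8 and 21.05 CPM (log2 fold change 3.25, SE 0.48, adjusted p = 0.000418), Nupr1 and Ddit3. The call of Nupr1 was lost without 60 h replicate 1 and that of Ddit3 without any but 7 day replicate 1. Lower calls were 6 with all 24 libraries, and 10 without 60 h replicate 1, 8 without 60 h replicate 2, 6 without 7 day replicate 1 and 9 without 7 day replicate 2.

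Protein production and folding genes were also lower, and the counts below stand beside 12.2% of all genes called lower and 12.5% higher. In the ribosome biogenesis list 18 of 30 fell and 1 rose, with a median log2 fold change of -1.52. Ncl, nucleolin, fell from 1573 and 1749 CPM to 394 and 356 CPM (log2 fold change -2.15, SE 0.35, adjusted p = 0.000697), Bop1, of the large subunit's assembly, from 154 and 187 CPM to 18.4 and 33.6 CPM (log2 fold change -2.71, SE 0.39, adjusted p = 0.000308). Fbl, which methylates ribosomal RNA, fell from 167 and 174 CPM to 59.8 and 52.2 CPM (log2 fold change -1.61, SE 0.25, adjusted p = 0.000556). Among chaperones 15 of 25 fell. Cct6a, of the ring that folds actin and tubulin, fell from 634 and 701 CPM to 173 and 158 CPM (log2 fold change -2.01, SE 0.31, adjusted p = 0.000517). Hspa9, the mitochondrial Hsp70, fell from 754 and 895 CPM to 118 and 150.2 CPM (log2 fold change -2.62, SE 0.42, adjusted p = 0.000648). The one chaperone called higher was Hsp90b1, of the endoplasmic reticulum, from 309.9 and 295 CPM to 552 and 619 CPM (log2 fold change 0.95, SE 0.32, adjusted p = 0.0413), a call lost without any 1 of the 4 libraries. In the proteasome 17 of 29 fell and none rose. Psmb7, a catalytic subunit, fell from 289 and 306 CPM to 88.0 and 96.5 CPM (log2 fold change -1.69, SE 0.25, adjusted p = 0.000382). These counts depended on the libraries fitted. With all 24 libraries 4 ribosome biogenesis and 5 proteasome genes were lower, and with all 30 libraries of the series 7 and 7. Proteasome calls numbered 8 without 60 h replicate 1, 5 without 60 h replicate 2, 4 without 7 day replicate 1 and 9 without 7 day replicate 2. Ribosome biogenesis and chaperone calls were fewest, 9 each, without 7 day replicate 1.

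Immediate early genes, switched on within minutes of a stimulus, were lower in 9 of 25 cases and higher in 2. Of all genes tested, 12.2% were called lower and 12.5% higher. Fosl1, an AP-1 subunit, fell from 134 and 85.2 CPM to 0.714 and 0.243 CPM (log2 fold change -7.82, SE 1.29, adjusted p = 0.00125). Junb, another, fell from 154 and 269 CPM to 4.92 and 9.47 CPM (log2 fold change -4.88, SE 1.03, adjusted p = 0.00401; lost without 7 day replicate 1). Zfp36, which degrades messenger RNA, fell from 111 and 243 CPM to 7.46 and 9.96 CPM (log2 fold change -4.34, SE 0.84, adjusted p = 0.00231). Fos itself had 45.7 and 139 CPM at 60 h against 46.9 and 158 at 7 days (log2 fold change 0.15, SE 0.76, adjusted p = 0.928), and its spread within each time was wider than the difference between times. The 60 h libraries also lay apart for Junb and Zfp36, though each was above both 7 day libraries. Lower calls numbered 8 without 60 h replicate 1, 4 without 60 h replicate 2, 3 without 7 day replicate 1 and 6 without 7 day replicate 2.

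Chromatin genes moved both ways, 13 higher and 9 lower of 33, beside 12.5% and 12.2% of all genes. Hmga2, an architectural protein of fetal and growing cells, fell from 84.5 and 64.2 CPM to 4.44 and 2.67 CPM (log2 fold change -4.38, SE 0.67, adjusted p = 0.000471). Its relative Hmga1 went from 1936 and 1798 CPM to 5.08 and 5.99 CPM (log2 fold change -8.40, SE 1.10, adjusted p = 0.00018). Its near-identical copy Hmga1b fell from 754 and 709 CPM to 0.714 and 0.567 CPM, so that reads of either may be counted for the other. Hmga1 was low at 14 days too, 0.501 and 15.3 CPM. Srcap, a remodeller that installs the histone H2A.Z, fell from 354 and 341 CPM to 9.92 and 16.0 CPM (log2 fold change -4.74, SE 0.51, adjusted p = 5.8e-05), and in uninjured cells had 945 and 793. Smarca2, an ATPase of the SWI/SNF complex, rose from 16.1 and 18.4 CPM to 115 and 96.5 CPM (log2 fold change 2.62, SE 0.37, adjusted p = 0.000291). The H3K4 demethylase Kdm5b and the H3K27 demethylase Kdm6b rose from 14.998 and 9.73 CPM to 80.6 and 63.1 CPM (log2 fold change 2.54, SE 0.41, adjusted p = 0.000697) and from 67.7 and 59.6 CPM to 269 and 239.8 CPM (log2 fold change 2.00, SE 0.34, adjusted p = 0.00101). Ezh2, which writes H3K27 methylation and often follows the cell cycle, was higher rather than lower, 48.0 and 47.5 CPM at 60 h against 92.3 and 89.2 at 7 days (log2 fold change 0.93, SE 0.29, adjusted p = 0.0315), though the call was lost without any 1 of the 4 libraries. Higher calls in the list numbered 8 without 60 h replicate 1, 4 without 60 h replicate 2, 7 without 7 day replicate 1 and 11 without 7 day replicate 2, and lower calls 3 to 4. With all 24 libraries they were 8 and 5.

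Interferon response genes were higher in 10 of 30 cases and lower in 2, beside 12.5% and 12.2% of all genes. The list summed to 675 and 773 CPM at 60 h and 766 and 828 at 7 days, so the sums overlapped. Irf9 and Stat2, subunits of the factor that type I interferon activates, rose from 2.49 and 2.4 CPM to 41.7 and 27.4 CPM (log2 fold change 3.82, SE 0.63, adjusted p = 0.000789) and from 2.87 and 4.2 CPM to 38.4 and 22.1 CPM (log2 fold change 3.09, SE 0.57, adjusted p = 0.00159). The induced genes Oasl2 (1.24 and 1.89 CPM at 60 h against 27.4 and 16.3 at 7 days) and Ifi35 (13.4 and 17.8 CPM at 60 h against 55.0 and 63.1 at 7 days) rose. Ifit1, another, rose from 0.214 and 0 CPM to 13.9 and 8.74 CPM (adjusted p = 0.00285). The antigen-presenting proteins B2m (157 and 159 CPM at 60 h against 155 and 214 at 7 days) and H2-K1 (81.2 and 120.2 CPM at 60 h against 87.0 and 113 at 7 days) did not pass the test, with adjusted p = 0.742 and 1. Higher calls numbered 5 without 60 h replicate 1, 7 without 60 h replicate 2, 6 without 7 day replicate 1 and 7 without 7 day replicate 2, and lower calls 0 in each of these fits.

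The largest rises among genes reaching 20 CPM were led by Col6a6, a collagen VI chain with no count at 60 h and 30.2 and 34.3 CPM at 7 days, at least 502-fold higher when 60 h is set to a floor of 3 counts over both libraries. Its call was lost without either 60 h library, and it has a near-identical copy. Dcx, doublecortin, a microtubule protein of migrating neurons, rose from 0.3 and 0.3 CPM to 88.7 and 97.8 CPM (log2 fold change 8.25, SE 1.17, adjusted p = 0.000496). Gpc3, a cell surface proteoglycan, rose from 0.686 and 2.23 CPM to 258 and 289 CPM (log2 fold change 7.54, SE 0.83, adjusted p = 6.75e-05). Gpc3 had 23.1 and 5.74 CPM at 14 days and 0.335 and 0.6 in uninjured cells, and Dcx 28.4 and 29.8 and 4.24 and 1.09, so both were higher at 7 days than in those groups. Pmepa1, a brake on TGF-beta signals, rose from 6.98 and 3.26 CPM to 257 and 207 CPM (log2 fold change 5.50, SE 0.59, adjusted p = 5.8e-05) and held 312 and 184 CPM at 14 days. The transcription factor Npas3 rose from 0.686 and 0.686 CPM to 45.9 and 34.2 CPM (log2 fold change 5.86, SE 0.97, adjusted p = 0.00081). Others of the 12 largest were Pdgfc (call lost without either 60 h library), Zmat1, Sap25, Crebl2, Mirg, Meg3 and Mfap4 (call lost without any 1 of the 4).

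The largest falls were genes near or at 0 at 7 days. Nptx1, a neuronal pentraxin, had 89.8 and 123 CPM at 60 h against 0 and 0 at 7 days, at least 886-fold lower. Dusp9, a phosphatase that turns off MAP kinases, had 29.5 and 31.7 CPM at 60 h against 0 and 0 at 7 days, at least 255-fold lower. Il33, an alarmin cytokine, had 28.7 and 28.3 CPM at 60 h against 0 and 0 at 7 days, at least 237-fold lower, and Wnt7b, a Wnt ligand, 29.1 and 22.8 CPM at 60 h against 0 and 0 at 7 days, at least 216-fold lower. Dusp9 and Wnt7b had no count in uninjured or 14 day libraries either. Lpcat4, Mbnl3, Slc37a2, Krt18 and Trim66 were likewise at 0 in both 7 day libraries. Trp53i11, a p53-induced gene, had 282 and 313 CPM at 60 h against 0.476 and 0 at 7 days (log2 fold change -10.24, SE 1.26, adjusted p = 0.000132), a fold of 1249. Lrch4 had 125 and 87.3 CPM at 60 h against 0.0794 and 0.0809 at 7 days, from 2 counts over both 7 day libraries, a ratio of 1326 (95% exact interval 367 to 10949, counting error only). Lrch4 stood at 91.8 and 168 CPM in uninjured cells, where Nptx1, Dusp9, Il33, Wnt7b and Trp53i11 were at 0.446 CPM or less. Lrch4 lies just upstream of Sap25 on the same strand of chromosome 5. Sap25, among the largest rises, had 0.514 and 0.129 CPM at 60 h against 31.0 and 14.5 at 7 days. Whether reads were assigned differently between these adjoining models was not tested. Hmga1b completes the 12. The calls of Mbnl3 and Slc37a2 were lost without either 7 day library.

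Markers of other muscle cell types were low or mixed. Their calls stand beside 12.5% of all genes called higher and 12.2% lower. The macrophage share lower and the mature fibre share higher were near those of all genes, and the endothelial shares were below them. The 15 macrophage markers summed to 259 and 57.7 CPM at 60 h and 18.97 and 30.2 at 7 days, 2 called lower (Mrc1 and Itgam, both at 0 at 7 days) and none higher, with Lyz2 at 141 and 28.9 CPM at 60 h against 6.91 and 12.4 at 7 days. Both calls were lost without any 1 of the 4 libraries, and Lyz2 has a near-identical copy. Endothelial markers summed to 27.4 and 28.2 and 27.1 and 26.9 CPM, with Tek higher (2.27 and 2.49 CPM at 60 h against 15.6 and 12.4 at 7 days) and Cdh5, the defining cadherin, lower and at 0 in both 7 day libraries (call lost without either 7 day library). Pericyte and smooth muscle markers summed to 809 and 893 and 695 and 819 CPM, with 3 higher and 1 lower, and include Des and Notch3, which satellite cells express. Schwann and neural markers summed to 318 and 311 and 654 and 651 CPM, 3 of 9 higher, Ncam1 among them, whose call was lost without any 1 of the 4 libraries. Schwann and neural calls numbered 1 without 60 h replicate 1, 2 without 60 h replicate 2, 1 without 7 day replicate 1 and 1 without 7 day replicate 2. Haemoglobin and other red cell markers summed to 5.01 and 3.22 CPM at 60 h and 13.9 and 138 at 7 days, the second 7 day library being the higher, with 3 of 5 tested markers called higher. None of these was called higher without either 60 h library or without 7 day replicate 2. Mature fibre markers summed to 922 and 986 and 312 and 282 CPM, 2 higher and 1 lower of 16. The lower one was Eno3, also in the glycolysis list, whose levels given there make up a large part of the 60 h sums and of their fall. Among the 16, 7 had a log2 fold change above 0 and 9 below. The higher calls numbered 0 without 60 h replicate 1, 1 without 60 h replicate 2, 0 without 7 day replicate 1 and 0 without 7 day replicate 2, and lower calls were 5 with DESeq2 and 5 with no filter. Tenocyte (8 tested), neutrophil (8 of 10) and lymphocyte (1 of 10) markers had no call. They summed to 17.8 and 10.1, 3.21 and 0.429 and 0.771 and 0.386 CPM at 60 h and 20.001 and 10.1, 0 and 0 and 0.714 and 4.29 CPM at 7 days. The part of such cells in the results above was not tested.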

How the data were processed

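The authors deposited whole-number read counts per gene, in separate tables for the time course to 60 h and for 7 to 28 days. Per the submitters' processing notes, Trimmomatic 0.36, HISAT2 2.1.0, SAMtools 1.3, StringTie 1.3.3 and the mm10 build were used. For the counting program, the use of strand and the gene annotation, the sources used here name nothing. Counts of 16 libraries (uninjured, 8, 16, 32 and 60 h, 7, 14 and 28 days) were fitted together with edgeR 4.0.16 (TMM scaling, low genes removed by filterByExpr, quasi-likelihood F test, Benjamini-Hochberg adjustment over all 22221 genes tested). CPM use the same scaling, and SE is the log2 fold change over the root of F. Near-identical copies were found with blastn 2.17.0 between GENCODE M21 transcripts. Named genes are a fixed panel, the 12 largest rises and falls whose higher group averaged 20 CPM or more, and up to 4 members of each list with the smallest adjusted p. Further members were named after their values were seen. The members and lists were chosen with earlier results of these data known. The fit was also run on simulated counts of smaller dispersion than these data (common dispersion 0.285), so that run is no measure of its error here. Replicates were compared by chi-square and none was a duplicate. Alternatives were other scaling (RLE), DESeq2 1.42.0, no filter, other sets of libraries or genes, and leaving out each library. Some genes of the lists are counted but not reported here by name.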

Additional observations from a re-analysis of the deposited data

How the results depend on the processing

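With the 4 libraries alone, 8358 of 17266 genes were called, 4299 of them lower. Of 27 named genes that did not pass in the main fit, 13 passed in that one. Protein-coding genes with no near-identical copy, an alternative chosen after seeing the data, gave 1709 higher and 2164 lower. Leaving out 1 library gave 2731 to 3559 genes called, 1132 to 2029 higher and 1196 to 1726 lower; fewer samples enter these fits, and the lone library is assumed to vary like the others. The share called higher was 50.6% of all calls and 41.2% to 57.6% in those fits. All 24 libraries of both tables gave 3990 calls, all 30 gave 4828, DESeq2 gave 7191, no filter gave 6204 of 37125 tested, RLE scaling gave 5484, removing ribosomal RNA and mitochondrial genes gave 5521, and removing pseudogene models, also chosen after seeing the data, gave 4895. No pairing by replicate number was seen: deviations of same-numbered libraries correlated at -0.003 over 11107 genes. This compares a single deviation per group, so it cannot show whether samples were handled in pairs. A fit with the replicate block called 5175 genes. Of 155 named genes called, 130 kept their call with 24 libraries, 139 with 30 and 120 to 127 without 1 library, and none of those called reversed under any alternative run. The log2 fold change reversed in 6 genes that did not pass the test. With no filter Fos was at -0.0173, Insig1 at -0.0756 and Vcam1 at -0.0538. H2-K1 was at 0.00424 with the 4 libraries alone and 0.0239 with 24 libraries, and Insig1 at -0.00101 among protein-coding genes with no copy. Without 1 library Fos ranged from -0.94 to 1.08, Gapdh from -0.49 to 0.16, H2-K1 from -0.36 to 0.20, Insig1 from -0.38 to 0.52, Top2a from -0.43 to 0.0887 and Vcam1 from -0.0684 to 0.20. The cause was not tested. At 7 days the depth limits what can be seen of a gene with no count to 0.120 CPM over the group.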

Other observations

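Of 28 lysosome and autophagy genes, 4 were called higher and 6 lower, beside 12.5% and 12.2% of all genes. The share higher was near that of all genes, and the median log2 fold change was -0.36. The genes below are values of single members. Among those that fell were the lysosomal protease Ctsd, from 394 and 269 CPM to 70.6 and 88.0 CPM (log2 fold change -2.06, SE 0.31, adjusted p = 0.000451), and the membrane protein Lamp1, from 254 and 269 CPM to 115 and 102 CPM (log2 fold change -1.27, SE 0.34, adjusted p = 0.0148). Those that rose were the kinase Ulk1, which starts autophagy, from 6.86 and 8.96 CPM to 34.4 and 34.8 CPM (log2 fold change 2.13, SE 0.38, adjusted p = 0.00139), Map1lc3a, which coats autophagosomes, from 20.5 and 24.9 CPM to 37.7 and 55.8 CPM (log2 fold change 1.04, SE 0.34, adjusted p = 0.0392), Atg5, from 18.4 and 13.5 CPM to 44.8 and 39.2 CPM, and Bnip3l, from 23.5 and 31.3 CPM to 107 and 115 CPM. Bnip3l has a near-identical copy. The calls of Ctsd, Ulk1 and Bnip3l held in every fit without 1 library, while that of Lamp1 held only without 60 h replicate 1, that of Map1lc3a only without 7 day replicate 1 and that of Atg5 only without 7 day replicate 2. In those fits 2 to 3 were called higher and 2 to 4 lower. The list summed to 2716 and 2595 CPM at 60 h and 1566 and 1671 at 7 days.

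Of 26 Wnt, Hippo and Hedgehog genes tested, 3 rose and 5 fell, beside 12.5% and 12.2% of all genes. The share higher was near that of all genes, and the genes below are values of single members. Axin2, a feedback target of Wnt signals, fell from 12.7 and 13.9 CPM to 0.952 and 0 CPM (log2 fold change -4.78, SE 1.297, adjusted p = 0.0164). The Hippo pathway's DNA-binding partners went opposite ways, Tead1 from 54.8 and 49.5 CPM to 202 and 92.8 CPM (log2 fold change 1.5002, SE 0.41, adjusted p = 0.0167) and Tead4 from 14.1 and 10.8 CPM to 0.476 and 0.809 CPM (log2 fold change -4.26, SE 1.41, adjusted p = 0.0437). Of the Hedgehog targets, Gli1 rose from 1.24 and 0.857 CPM to 9.13 and 3.97 CPM (log2 fold change 2.63, SE 0.59, adjusted p = 0.00563) and the receptor Ptch1 fell from 33.1 and 30.4 CPM to 13.6 and 14.2 CPM (log2 fold change -1.19, SE 0.33, adjusted p = 0.0179). The calls of Tead4 and Ptch1 were lost without any 1 of the 4 libraries, that of Tead1 without any but 7 day replicate 2, that of Axin2 without 60 h replicate 2 or 7 day replicate 2, and that of Gli1 without 60 h replicate 2 or 7 day replicate 1. In those fits 1 to 3 were called higher and 1 to 3 lower.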
